A study of Mus musculus with 11 samples.

Results

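Interferon response genes were followed in RNA from sorted mouse epidermal cells as a fixed list of 40 genes, chosen by name and looked up by Ensembl identifier among the 55536 Ensembl genes of the count files; all 40 were found. All 11 libraries came from the dorsal skin of male CD4Cre R26-tdT mice (C57Bl6/N), in which a Cre recombinase driven by Cd4 regulatory sequence switches on the red reporter tdTomato (tdT) from the Rosa26 locus, so that tdT+ cells are those in which Cre was active at some time or which descend from such cells. Cells were sorted as CD49f+CD34+Sca-1neg or CD49f+CD34+Sca-1+, here shortened to Sca-1neg and Sca-1+, and each was split into tdT+ and tdTneg cells, with 3 libraries per group except for 2 of Sca-1+ tdTneg cells. Each library held cells pooled from 2 mice, aged 29 weeks for replicate 1 and 32 weeks for replicates 2 and 3, and no wild-type animals or interferon-treated cells were among the groups. Totals ranged from 17409131 to 46542177 counts per library, and levels are given as CPM, a gene's count scaled to a common library size after TMM adjustment. Low counts removed none of the 40 members, and 20307 genes in all were tested.

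Interferons are secreted signals that put cells into an antiviral and immune-alert state. Type I interferons bind the receptor pair IFNAR1 and IFNAR2, which act through the kinases JAK1 and TYK2 on STAT2 and IRF9, and this complex recognises the interferon-stimulated response element (ISRE) in promoters. Interferon gamma binds IFNGR1 and IFNGR2 and acts mainly through gamma-activated sites (GAS). Keratinocytes, dendritic cells, T cells and endothelial cells all carry this signalling machinery, so its RNA does not mark a cell type. Not every member is so general, since Irf8 is a factor of myeloid and B cell development. Sca-1 itself is encoded by Ly6a, a gene known to be inducible by interferon. By role, the members comprised 4 receptor chains, 2 kinases, 8 transcription factors, 2 RNA sensors, 8 RNA-binding or RNA-degrading effectors, 3 genes of the ISG15 system, 4 genes for Mx proteins, viperin and tetherin, 5 interferon-inducible GTPases and 4 other genes, of which Socs1 is a feedback inhibitor. The 26 members outside the receptors, kinases and transcription factors are called the induced members.

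Promoters are shown for the 4 called members with the lowest p between the populations, because these carry the main difference described here and differ in the response elements they hold. Each covers 250 bases before to 50 after the annotated start, read from RefSeq (GRCm38.p6) 5′ to 3′ on the gene's strand, with matches in capitals. The motifs searched were ISRE, GAAANNGAAA, on both strands, and GAS, TTCNNNGAA, which is its own reverse complement; matches may overlap. The windows lie at chr10:19591699-19591998, plus strand, for Ifngr1, chr6:29526375-29526674, plus strand, for Irf5, at chr5:120907476-120907775, minus strand, for Oas1a, and at chr3:142620413-142620712, plus strand, for Gbp2.
Ifngr1: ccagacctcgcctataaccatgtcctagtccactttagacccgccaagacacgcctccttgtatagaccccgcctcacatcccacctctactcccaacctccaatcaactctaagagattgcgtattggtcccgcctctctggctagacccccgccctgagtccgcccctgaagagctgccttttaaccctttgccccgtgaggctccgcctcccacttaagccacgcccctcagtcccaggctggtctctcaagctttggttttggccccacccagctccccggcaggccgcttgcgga
Irf5: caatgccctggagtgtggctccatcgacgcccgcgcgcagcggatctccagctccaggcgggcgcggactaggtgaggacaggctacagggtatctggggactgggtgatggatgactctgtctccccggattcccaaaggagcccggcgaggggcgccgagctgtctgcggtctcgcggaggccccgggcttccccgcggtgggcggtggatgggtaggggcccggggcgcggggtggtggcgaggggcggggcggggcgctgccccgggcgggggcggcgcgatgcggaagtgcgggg
Oas1a: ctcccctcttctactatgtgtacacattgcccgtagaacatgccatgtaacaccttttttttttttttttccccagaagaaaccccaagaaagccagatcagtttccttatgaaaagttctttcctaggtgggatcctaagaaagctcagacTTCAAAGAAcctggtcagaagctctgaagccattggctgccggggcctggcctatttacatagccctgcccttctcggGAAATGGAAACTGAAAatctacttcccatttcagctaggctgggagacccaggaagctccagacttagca
Gbp2: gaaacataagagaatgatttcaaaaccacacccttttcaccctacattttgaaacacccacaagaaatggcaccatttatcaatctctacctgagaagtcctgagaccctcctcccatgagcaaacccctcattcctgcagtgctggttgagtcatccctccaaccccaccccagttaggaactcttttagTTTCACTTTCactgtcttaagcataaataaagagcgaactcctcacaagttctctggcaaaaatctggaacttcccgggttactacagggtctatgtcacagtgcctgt

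Neither motif occurred in the windows of Ifngr1 or Irf5. Oas1a held 2 overlapping ISRE matches, 20 and 14 bases before the start, and 1 GAS match 98 bases before it. Gbp2 held 1 ISRE match, 59 bases before the start used for its window. That start lies inside the gene span given below for Gbp2, as does the match. Promoters were found for 36 of the 40 members, all but Mx1, Mx2, Oas2 and Usp18. ISRE matched in 17 of the 36 (47.2%), against 3.99% of the 27025 genes in the promoter table, and GAS in 12 (33.3%), against 9.55%. The 17 were Bst2, Ddx58, Gbp2, Gbp3, Gbp7, Ifih1, Ifit1, Ifit3, Igtp, Irf2, Irgm1, Isg15, Oas1a, Oas3, Rsad2, Socs1 and Stat2. All but Irf2 and Stat2 are induced members. A match to these letters is a description of the window and not a bound site.

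Some libraries stood apart before any comparison. The count row that lies outside the Ensembl genes, whose identity the files do not state, was at 2.54 to 4.89 CPM in the 5 tdTneg libraries and at 133 to 307 CPM in 5 of 6 tdT+ libraries, but at 2.05 CPM in the library labelled Sca-1neg tdT+ replicate 2. In this row that library was like the tdTneg libraries, against its label. Whether it is mislabelled was not tested, so its values as tdT+ cells are in doubt. In the sums of leukocyte and T cell markers the library lay above all Sca-1neg tdTneg libraries, with the other Sca-1neg tdT+ libraries. It was kept in the fits under its label, its value is the middle of the 3 given for Sca-1neg tdT+ cells wherever values are listed, and each comparison is also given without it. Sca-1neg tdT+ replicate 3 had the lowest value of its group for 24 of the 26 induced members, and Ifit2 and Ifi44 were at 0 counts there, which allows up to 0.165 CPM (3 counts). The summed CPM of the induced members was 216 in that library, against 569.96 and 445 in replicates 1 and 2 of its group. The libraries also differed in markers of other cell types, each list holding 10 genes. Summed epidermal keratinocyte markers, led by Krt5, ranged from 28442 to 52008 CPM, so the labelled cell type was present in every library. T cell markers, led by Thy1, summed to 24.6 to 29.7 CPM in Sca-1neg tdTneg, 40.5, 81.4 and 71.5 CPM in Sca-1neg tdT+, 148 and 156 CPM in Sca-1+ tdTneg and 425 to 1096 CPM in Sca-1+ tdT+ libraries. Leukocyte markers, led by Ptprc in tdT+ libraries, summed to 21.0 to 72.8 CPM in Sca-1neg tdTneg, 184, 218 and 87.1 CPM in Sca-1neg tdT+ and 214 to 863 CPM in Sca-1+ libraries. Langerhans and myeloid cell markers, led by Cd74, summed to 16 to 159.5 CPM in Sca-1neg tdTneg and 314, 732 and 71.1 CPM in Sca-1neg tdT+ libraries. They summed to 382 to 503 CPM in Sca-1+ tdT+ and 621 and 1303 CPM in Sca-1+ tdTneg libraries. Endothelial markers, led by Pecam1 in 3 of the groups, summed to 2276 and 2407 CPM in Sca-1+ tdTneg libraries. In Sca-1neg tdT+ libraries they summed to 97.1, 604 and 15.6 CPM, and in all others to 45.1 to 133 CPM. For both lists the library labelled Sca-1neg tdT+ replicate 2 had the highest sum of the Sca-1neg libraries. Replicate 3 had the lowest sum of its group for both. Of the defining markers, Cd28, Tyrobp, Lum, Tyr and Slc45a2 were at 0 in at least 1 library, and no other marker was at 0 in any. In the comparison of the populations described next, 9 of 10 T cell, 8 of 10 leukocyte and 5 of 10 Langerhans and myeloid markers were called higher in Sca-1+ cells, none of 10 endothelial and none of 10 dissociation response genes were called, and 1 fibroblast, 1 keratinocyte and 3 melanocyte markers were called lower and 2 keratinocyte and 1 melanocyte markers higher. The part of these cells in the results was not tested, and in RNA from pooled cells a change in the share of cells cannot be told apart from a change in RNA per cell.

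**Figure D1:**
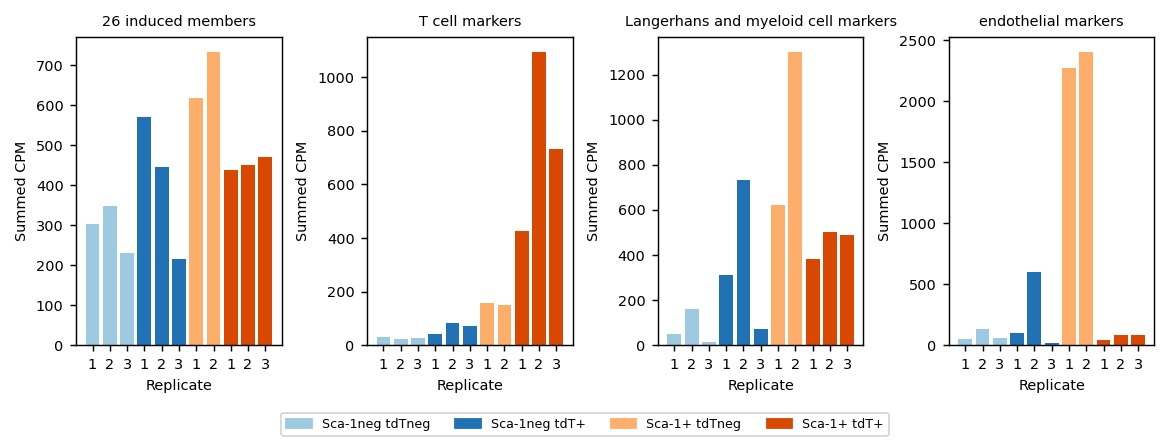
Summed CPM per library of the 26 induced members and of 3 lists of 10 marker genes, with bars coloured by group and the replicate number on the horizontal axis; each vertical axis starts at 0. The Sca-1+ tdTneg libraries had the highest member sums (618 and 734 CPM) and the highest endothelial sums, while T cell markers were highest in Sca-1+ tdT+ libraries.

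Across the 4 groups, the members spanned a wide range of levels per length, given as mean CPM per kilobase of merged exons over the groups. Jak1 was highest at 44.5, followed by Ifngr1 (27.8), Irf3 (26.9), Irf1 (25.3) and Bst2 (25), and these last 4 exchanged ranks between groups. Mx1 (1.04), Irf8 (0.997), Mx2 (0.845) and Ifi44 (0.775) were lowest. Within Sca-1neg tdTneg cells, Irf3 stood at 30.3 ± 2.07 CPM per kilobase (SD, n = 3), above Irf1 (20.2 ± 4.05) and Ifngr1 (10.3 ± 1.32). In Sca-1+ tdT+ cells the order changed, with Ifngr1 at 44.9 ± 7.66 above Irf3 (27.2 ± 3.21) and Irf1 (24.4 ± 8.23), whose spreads overlapped.

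**Figure D2:**
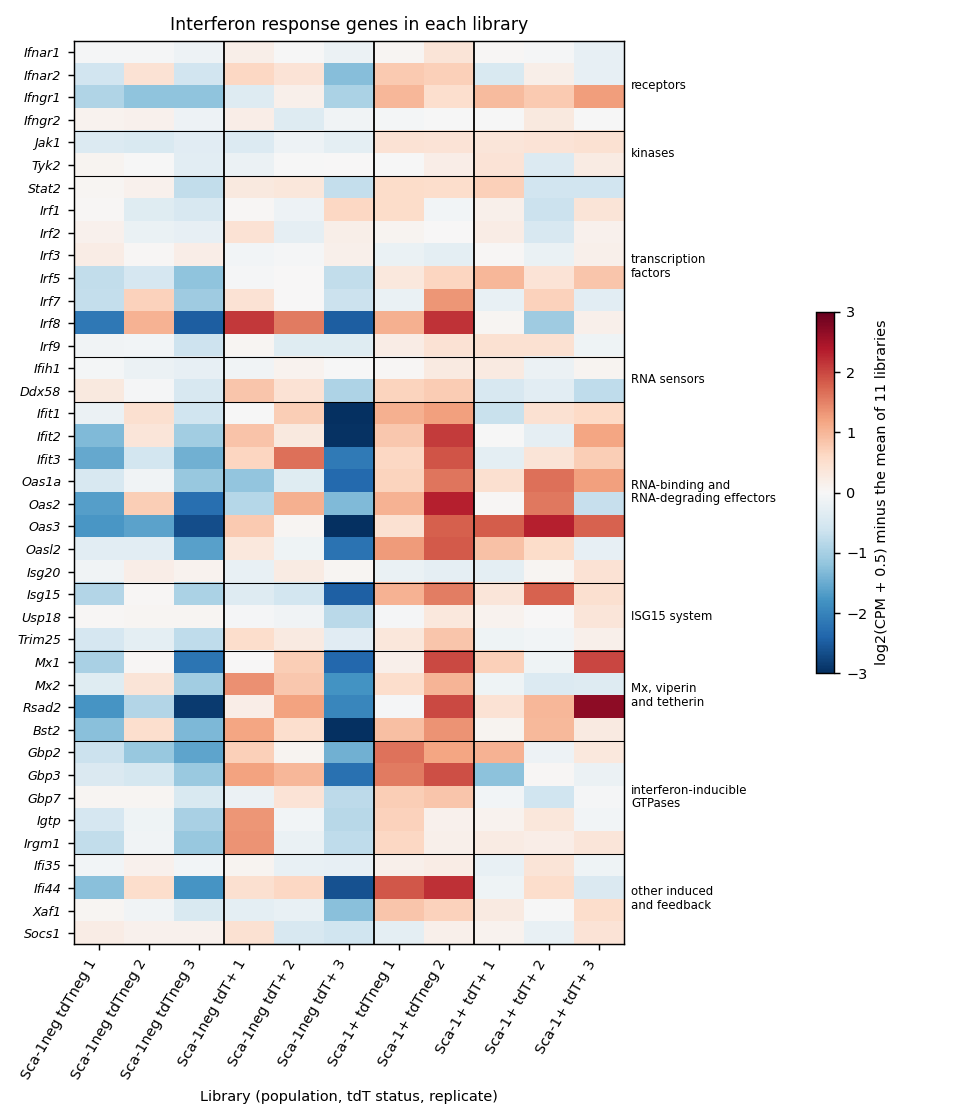
Level of each of the 40 members (rows, grouped by role) in each of the 11 libraries (columns, grouped by population and tdT status) as log2(CPM + 0.5) minus the member's mean over the libraries; red is above and blue below that mean, with colours saturating at 3. Most effectors (not Isg20), the Mx genes, Rsad2 and Bst2 are low in Sca-1neg tdT+ replicate 3 and high in Sca-1+ tdTneg replicate 2, while Ifnar1, Ifngr2, Tyk2, Irf2, Irf3 and Irf9 stay near their means.

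The first comparison asked whether the populations differ, Sca-1+ against Sca-1neg, averaged over tdT status. In Sca-1+ cells 7 members rose and none fell, namely the receptor chain Ifngr1, the transcription factor Irf5, the oligoadenylate synthetase family genes Oas1a, Oas3 and Oasl2, the ubiquitin-like modifier Isg15 and the GTPase Gbp2. The rises ran from 2.23-fold for Irf5 to 8.09-fold for Oas3. Of all 20307 genes, 4.77% were called higher and 11.6% in either direction, and 7 of 40 members is 17.5%. A call needed a Benjamini-Hochberg adjusted p from edgeR's quasi-likelihood test below 0.05 and a log2 fold change beyond 1 in size. A fitted change above 0 was found for 36 of the 40 members, with a median of 0.49, against 44.1% of all genes and a median of -0.09. At an unadjusted p below 0.05 there were 13 members, 12 of them higher, which is 32.5% against 34.4% of all genes. The libraries of the populations did not overlap for 5 members (12.5%, against 10.8% of all genes), Ifngr1, Jak1, Irf5, Oas1a and Isg15. Without the library labelled Sca-1neg tdT+ replicate 2 the count was 7, with Rsad2 called (adjusted p = 0.045) in place of Oasl2 (adjusted p = 0.060), and without replicate 3 of that group the same 7 were called, whereas it was 4 and 3 without Sca-1+ tdTneg replicate 1 or 2, where 4.86% and 6.07% of all genes were called. With the replicate number as a block it was 8, with Oas2 added, and 11.1% of all genes were called.

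Receptors and kinases differed among themselves. Ifngr1 encodes the ligand-binding chain of the interferon gamma receptor (chr10:19591949-19610229, GRCm38). Ifngr1 was at 33.8, 27.3 and 27.2 CPM in tdTneg and 48.1, 70.9 and 32.5 CPM in tdT+ Sca-1neg libraries, and at 126 and 90.6 CPM in tdTneg and 123, 109 and 152 CPM in tdT+ Sca-1+ libraries. Every Sca-1+ library lay above every Sca-1neg library, a 3.06-fold difference (log2 fold change 1.61 ± 0.20 (SE), adjusted p = 0.00065), and it was called in all 17 alternatives tested. The difference was 1.61 at 29 and 1.65 at 32 weeks on the log2(CPM + 0.5) scale. Jak1 was at 226, 219 and 238 CPM in tdTneg and 229, 274 and 246 CPM in tdT+ Sca-1neg libraries, and at 410.3 and 402 CPM in tdTneg and 389, 401 and 419 CPM in tdT+ Sca-1+ libraries. Jak1, the kinase shared by both receptor types, did not overlap between the populations either, but its size stayed below the threshold (log2 fold change 0.76 ± 0.09 (SE), adjusted p = 0.00049). Ifnar1 was at 59.9, 59.998 and 54.6 CPM in tdTneg and 69.2, 60.8 and 54.4 CPM in tdT+ Sca-1neg libraries, and at 63.8 and 79.7 CPM in tdTneg and 62.8, 59.5 and 51.6 CPM in tdT+ Sca-1+ libraries. Ifnar1 overlapped between the populations (log2 fold change 0.11 ± 0.11 (SE), adjusted p = 0.51). The partner chains Ifnar2 (6.34 to 28.2 CPM) and Ifngr2 (26.4 to 42.4 CPM) and the kinase Tyk2 (47.6 to 84.2 CPM) overlapped as well, with log2 fold changes of 0.32, 0.05 and 0.17 and adjusted p of 0.57, 0.84 and 0.46. Of the 4 receptor chains 1 was called, and of the 2 kinases none.

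Of the 8 transcription factors, 1 was called. Irf5, which drives inflammatory gene expression downstream of pattern recognition receptors (chr6:29526625-29541871), separated the populations completely. Irf5 was at 16, 18.8 and 11.3 CPM in tdTneg and 26.4, 26.9 and 15.9 CPM in tdT+ Sca-1neg libraries, and at 33.6 and 42.3 CPM in tdTneg and 54.6, 36.2 and 48.7 CPM in tdT+ Sca-1+ libraries. The difference was 2.23-fold (log2 fold change 1.16 ± 0.20 (SE), adjusted p = 0.0035), 1.04 at 29 and 1.25 at 32 weeks on the log2(CPM + 0.5) scale, and was called in all 17 alternatives. Irf9 was at 48.3, 48.7 and 33.8 CPM in tdTneg and 54.2, 40.5 and 40.2 CPM in tdT+ Sca-1neg libraries, and at 60.5 and 70.6 CPM in tdTneg and 71.6, 71.3 and 47.7 CPM in tdT+ Sca-1+ libraries. Irf9, the DNA-binding part of the type I complex, passed the adjusted p but not the size threshold (log2 fold change 0.54 ± 0.16 (SE), adjusted p = 0.040). Irf3 was at 109, 96.1 and 108 CPM in tdTneg and 87.5, 91.6 and 103 CPM in tdT+ Sca-1neg libraries, and at 80.5 and 76.4 CPM in tdTneg and 95.9, 81.5 and 103 CPM in tdT+ Sca-1+ libraries. Irf3, which relays RNA sensing to interferon production, was the lone member with an unadjusted p below 0.05 in the lower direction (log2 fold change -0.21 ± 0.09 (SE), adjusted p = 0.14). Stat2 was at 55.1, 57.6 and 31.2 CPM in tdTneg and 64.3, 66.4 and 32.1 CPM in tdT+ Sca-1neg libraries, and at 76.6 and 75.6 CPM in tdTneg and 86.5, 35.2 and 35.1 CPM in tdT+ Sca-1+ libraries. Irf1 was at 98.4, 74.3 and 67.8 CPM in tdTneg and 97.4, 85.4 and 147 CPM in tdT+ Sca-1neg libraries, and at 139.7 and 89.6 CPM in tdTneg and 105, 60.8 and 124 CPM in tdT+ Sca-1+ libraries. Irf7 was at 12.8, 34.7 and 9.95 CPM in tdTneg and 28.8, 21.3 and 13.5 CPM in tdT+ Sca-1neg libraries, and at 18.4 and 54.3 CPM in tdTneg and 18.1, 34.9 and 16.9 CPM in tdT+ Sca-1+ libraries. For these 3 the populations overlapped, with log2 fold change 0.31 ± 0.30 (SE), adjusted p = 0.51 for Stat2, 0.17 ± 0.23 (adjusted p = 0.65) for Irf1 and 0.53 ± 0.41 (adjusted p = 0.40) for Irf7, the factor that amplifies type I interferon production. Irf7 was highest in Sca-1+ tdTneg replicate 2 and Sca-1+ tdT+ replicate 2 and, among Sca-1neg tdTneg libraries, in replicate 2. Irf2 (31.2 to 59.9 CPM) and Irf8 (0.220 to 17.6 CPM) overlapped, with log2 fold changes of -0.01 and 0.27. Irf8, a factor of myeloid and B cell development, varied most. It ran from 0.220 CPM in replicate 3 of both Sca-1neg groups to 17.6 CPM in Sca-1+ tdTneg replicate 2. Within Sca-1neg tdT+ libraries it reached 16.9 CPM in replicate 1.

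**Figure D3:**
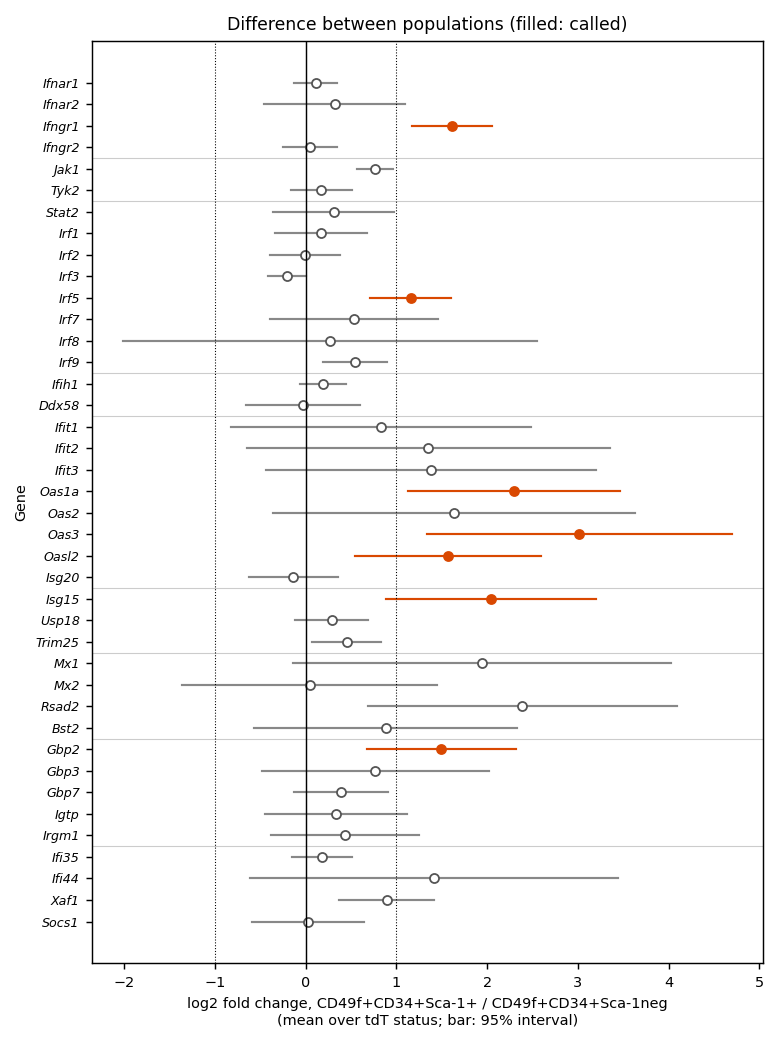
Fitted log2 fold change between Sca-1+ and Sca-1neg cells (horizontal axis, mean over tdT status) with its 95% interval for each of the 40 members, in order of role; filled points are the 7 called members and dotted lines mark a log2 fold change of 1 in size. Intervals are narrow for receptors and kinases and wide for effectors and Mx genes, and all 7 called members lie to the right.

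The 8 RNA-binding or RNA-degrading effectors held 3 of the 7 called members and had a median log2 fold change of 1.47. The oligoadenylate synthetases sense double-stranded RNA and make the messenger that activates RNase L. Oas1a lies at chr5:120896256-120907521 and Oas3 at chr5:120753098-120777661. Oas1a was at 2.29, 3.12 and 1.27 CPM in tdTneg and 1.22, 2.52 and 0.276 CPM in tdT+ Sca-1neg libraries, and at 5.66 and 11.4 CPM in tdTneg and 4.98, 11.7 and 8.72 CPM in tdT+ Sca-1+ libraries. Oas1a did not overlap between populations, with a 4.91-fold rise (log2 fold change 2.30 ± 0.52 (SE), adjusted p = 0.014). Oas3 was at 0.950, 1.08 and 0.268 CPM in tdTneg and 7.89, 4.55 and 0.110 CPM in tdT+ Sca-1neg libraries, and at 6.20 and 16.3 CPM in tdTneg and 16.6, 24 and 16 CPM in tdT+ Sca-1+ libraries. Oas3 rose 8.09-fold (log2 fold change 3.02 ± 0.76 (SE), adjusted p = 0.021), and the lowest Sca-1+ library lay below Sca-1neg tdT+ replicate 1. Without Sca-1+ tdTneg replicate 2 neither was called (adjusted p = 0.067 and 0.084). Oasl2 was at 10.6, 10.5 and 3.93 CPM in tdTneg and 16.5, 12 and 2.48 CPM in tdT+ Sca-1neg libraries, and at 32.8 and 48.8 CPM in tdTneg and 24.6, 19.7 and 11 CPM in tdT+ Sca-1+ libraries. Oasl2 (chr5:114896936-114912234), an oligoadenylate synthetase-like gene, rose 2.96-fold with an overlap of the libraries (log2 fold change 1.57 ± 0.46 (SE), adjusted p = 0.040), and it was called in 4 of 11 fits that left out 1 library. Ifit3 was at 0.331, 1.14 and 0.390 CPM in tdTneg and 3.26, 7.12 and 0.0551 CPM in tdT+ Sca-1neg libraries, and at 3.20 and 8.34 CPM in tdTneg and 1.47, 2.67 and 3.51 CPM in tdT+ Sca-1+ libraries. Ifit3, which with its relatives binds viral RNA, overlapped widely and was not called (log2 fold change 1.38 ± 0.82 (SE), adjusted p = 0.26). Oas2 (0.171 to 15.5 CPM), Ifit2 (0 to 16.4 CPM) and Ifit1 (0.0551 to 10.6 CPM) had log2 fold changes of 1.64, 1.35 and 0.83, none called, and the exonuclease Isg20 (5.68 to 9.65 CPM) had -0.14. With the replicate block Oas2 was called (log2 fold change 1.86, adjusted p = 0.014). The RNA sensors Ifih1 (35.9 to 51.6 CPM) and Ddx58, which encodes RIG-I (17.3 to 58.9 CPM), had log2 fold changes of 0.19 and -0.03 and were not called. Close relatives within the Oas, Ifit and Gbp families can share reads, so the split between such genes depends on the counting.

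In the ISG15 system 1 of 3 genes was called. Isg15 encodes a small modifier that is attached to proteins after interferon exposure (chr4:156199424-156200818). Isg15 was at 2.29, 4.78 and 2.20 CPM in tdTneg and 3.44, 3.05 and 0.441 CPM in tdT+ Sca-1neg libraries, and at 10.1 and 14.4 CPM in tdTneg and 6.13, 17.1 and 6.76 CPM in tdT+ Sca-1+ libraries. The populations did not overlap, with a 4.13-fold rise (log2 fold change 2.05 ± 0.52 (SE), adjusted p = 0.023), although the call was lost without Sca-1neg tdTneg replicate 3, Sca-1+ tdTneg replicate 1 or Sca-1+ tdTneg replicate 2 (adjusted p = 0.051, 0.062 and 0.081). Trim25 was at 49.7, 58 and 41.7 CPM in tdTneg and 102, 86.1 and 56.4 CPM in tdT+ Sca-1neg libraries, and at 89.5 and 127 CPM in tdTneg and 65, 66.9 and 78.5 CPM in tdT+ Sca-1+ libraries. Trim25, a ligase of this system that also activates RIG-I, was not called over both tdT states (log2 fold change 0.45 ± 0.17 (SE), adjusted p = 0.090). Usp18, which removes ISG15 and dampens the receptor, ranged from 8.98 to 20.8 CPM and had a log2 fold change of 0.29.

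None of the 4 genes for Mx proteins, viperin and tetherin was called, with a median log2 fold change of 1.41. Rsad2 was at 1.26, 2.78 and 0.317 CPM in tdTneg and 6.34, 13.2 and 1.05 CPM in tdT+ Sca-1neg libraries, and at 5.38 and 23.2 CPM in tdTneg and 7.54, 11.5 and 38.1 CPM in tdT+ Sca-1+ libraries. Rsad2 encodes viperin and had an adjusted p just above the threshold (log2 fold change 2.38 ± 0.76 (SE), adjusted p = 0.054), and DESeq2, which called 16.4% of all genes, called it (adjusted p = 0.015). Without Sca-1+ tdTneg replicate 2 its log2 fold change was 1.70. Bst2 was at 6.43, 22.7 and 6.0 CPM in tdTneg and 36.8, 22.9 and 1.32 CPM in tdT+ Sca-1neg libraries, and at 30.2 and 41.3 CPM in tdTneg and 16.9, 31.6 and 19.4 CPM in tdT+ Sca-1+ libraries. Bst2, or tetherin, which holds budding virus at the membrane, overlapped between populations (log2 fold change 0.88 ± 0.65 (SE), adjusted p = 0.37). Mx1 (0.0551 to 10.9 CPM) and Mx2 (0.331 to 6.98 CPM) had log2 fold changes of 1.94 and 0.04. Mx2 is listed as a polymorphic pseudogene in the annotation used.

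Of the 5 interferon-inducible GTPases, which attack the vacuoles of intracellular microbes, 1 was called. Gbp2 was at 20.9, 14.8 and 10.8 CPM in tdTneg and 54.1, 34.7 and 11.8 CPM in tdT+ Sca-1neg libraries, and at 103 and 75.1 CPM in tdTneg and 68, 29.8 and 41.1 CPM in tdT+ Sca-1+ libraries. Gbp2 (chr3:142620602-142638008) rose 2.81-fold (log2 fold change 1.49 ± 0.37 (SE), adjusted p = 0.020), with Sca-1neg tdT+ replicates 1 and 2 inside the Sca-1+ range, and the call was lost without Sca-1+ tdTneg replicate 1 (adjusted p = 0.093). Igtp was at 17.6, 22.9 and 12.6 CPM in tdTneg and 63.3, 23.8 and 13.9 CPM in tdT+ Sca-1neg libraries, and at 40.6 and 27.7 CPM in tdTneg and 27.2, 32.1 and 23.6 CPM in tdT+ Sca-1+ libraries. Irgm1 was at 12.6, 19.8 and 9.32 CPM in tdTneg and 55.2, 18.4 and 12.2 CPM in tdT+ Sca-1neg libraries, and at 33.2 and 23.7 CPM in tdTneg and 25.1, 24.3 and 27.5 CPM in tdT+ Sca-1+ libraries. For both, Sca-1neg tdT+ replicate 1 was the highest of all 11 libraries, and neither was called (Igtp log2 fold change 0.33 ± 0.35 (SE), adjusted p = 0.55, and Irgm1 0.44 ± 0.37, adjusted p = 0.44). Gbp3 (0.937 to 25.2 CPM) and Gbp7 (10.4 to 32.8 CPM) had log2 fold changes of 0.77 and 0.38. Xaf1 was at 11.6, 10.3 and 7.95 CPM in tdTneg and 9.02, 9.48 and 4.41 CPM in tdT+ Sca-1neg libraries, and at 20.1 and 18.4 CPM in tdTneg and 13.5, 11 and 16.3 CPM in tdT+ Sca-1+ libraries. Xaf1, a pro-apoptotic induced gene, passed the adjusted p but not the size threshold (log2 fold change 0.89 ± 0.24 (SE), adjusted p = 0.027). Ifi44 (0 to 13.5 CPM), Ifi35 (19.7 to 30.9 CPM) and the feedback inhibitor Socs1 (4.02 to 8.88 CPM) had log2 fold changes of 1.41, 0.18 and 0.03, none called.

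**Figure D4:**
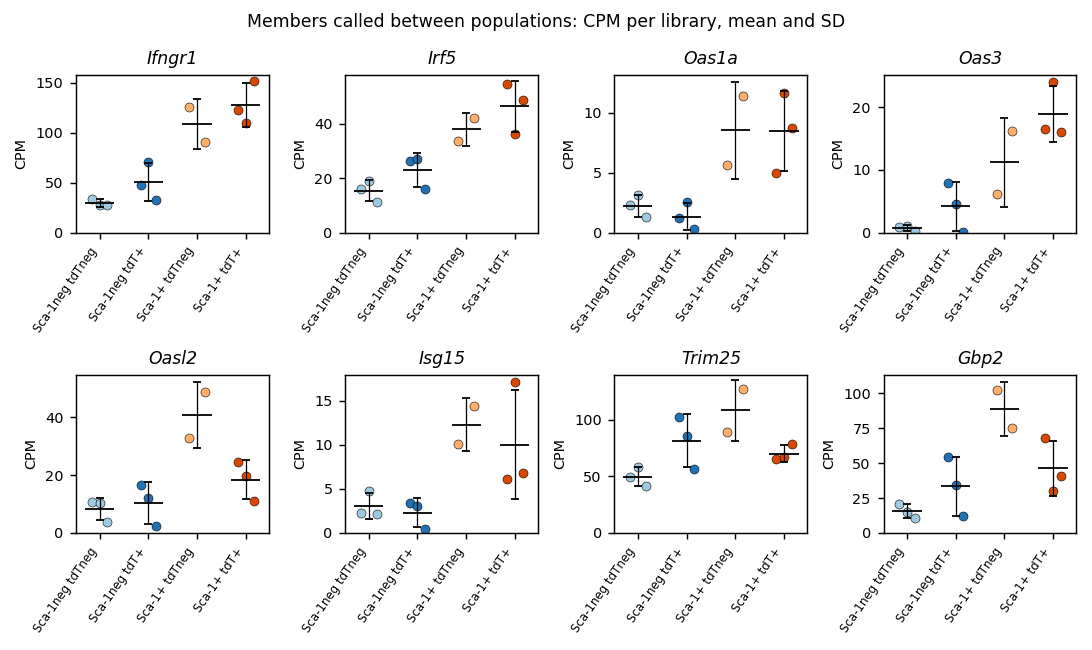
CPM in each library (points) of the 8 members called in at least 1 comparison between populations, by group, with the group mean (horizontal line) and SD (n = 3, or 2 for Sca-1+ tdTneg); vertical axes start at 0. For Ifngr1, Irf5, Oas1a and Isg15 all Sca-1+ points lie above all Sca-1neg points.

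The members with and without an ISRE match in the promoter window overlapped in their differences between populations. The 17 with a match had a median log2 fold change of 0.77 (from -0.03 to 3.02), with 15 above 0, and the 19 without had 0.45 (from -0.21 to 1.61), with 17 above 0. For GAS the order of the medians was the reverse. The 12 with a GAS match had a median of 0.29 (from -0.14 to 2.30), with 10 above 0. The 24 without had 0.77 (from -0.21 to 3.02), with 22 above 0. Of the 7 called members, 4 held an ISRE match, namely Isg15, Oas1a, Oas3 and Gbp2, and Ifngr1, Irf5 and Oasl2 held none in these letters. By age of the mice, 28 of the 40 members were higher in Sca-1+ libraries at 29 weeks (2 against 2 libraries, median difference 0.33 on the log2(CPM + 0.5) scale) and 37 at 32 weeks (3 against 4, median 0.77), with 29 of 40 on the same side at both ages. All 7 called members were higher at both ages.

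The same comparison was then made within each tdT state. Within tdT+ cells 3 members rose, Ifngr1, Irf5 and Oas1a, and none fell, against 2.91% of all genes called higher. Their log2 fold changes were 1.34, 1.01 and 2.66 (adjusted p = 0.011, 0.037 and 0.042). Here 24 of 40 members were above 0, the median was 0.16, and 8 members did not overlap (20%, against 30.4% of all genes). The median was 0.39 and 0.06 without Sca-1neg tdT+ replicates 1 and 3, 0.22 without the library labelled replicate 2 and 0.06 without Sca-1+ tdT+ replicate 2. Without the library labelled Sca-1neg tdT+ replicate 2, Ifngr1 and Oas1a were called, and without replicate 3 of that group Ifngr1 was called higher and Ddx58 and Gbp3 lower (log2 fold changes -1.17 and -1.57). Irf5 lay close to the size threshold and was called in 5 of 18 alternatives, and neither DESeq2 (log2 fold change 0.97) nor RLE size factors called it. Those fits called 3 and 2 members, against 15.2% and 8.32% of all genes. The log2 fold change of Oas1a was 3.48 without the library labelled Sca-1neg tdT+ replicate 2. With the replicate block Isg15 was called as well (log2 fold change 2.22, adjusted p = 0.044). In this comparison 9 of 10 T cell markers were called higher, with a median log2 fold change of 3.51, all 10 leukocyte markers were higher without overlap and all 10 endothelial markers had a fitted change below 0. Leaving out Sca-1neg tdT+ replicate 1, Sca-1neg tdTneg replicate 1, Sca-1+ tdT+ replicate 1 or 3, or either Sca-1+ tdTneg library left 1 call each, Ifngr1, with 5.72% to 7.35% of all genes called in these fits, against 8.45% with all libraries.

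Within tdTneg cells 4 members rose, Ifngr1, Irf5, Trim25 and Gbp2, and none fell, against 3.29% of all genes called higher. Gbp2 rose 5.74-fold (log2 fold change 2.52 ± 0.55 (SE), adjusted p = 0.029) and Trim25 2.18-fold (log2 fold change 1.12 ± 0.25 (SE), adjusted p = 0.032). Ifngr1 and Irf5 rose 3.68-fold and 2.47-fold (adjusted p = 0.0096 and 0.032). In this state 36 of 40 members were above 0, with a median of 0.99, against -0.13 over all genes. The 2 Sca-1+ libraries lay outside the range of the 3 Sca-1neg libraries for 33 members (82.5%), 31 of them higher, against 46.3% of all genes. Among the antiviral genes the fitted differences reached 3.86 ± 1.13 for Oas3 (adjusted p = 0.079) and 3.30 ± 1.14 for Rsad2 (adjusted p = 0.13), without passing the test. Rsad2 was at 4.17 without Sca-1neg tdTneg replicate 2 and 3.99 and 1.94 without Sca-1+ tdTneg replicates 1 and 2, and Oas3 at 3.06 without the latter. These are the Sca-1+ libraries with 2276 and 2407 CPM of endothelial markers and 621 and 1303 CPM of Langerhans and myeloid markers, and in this comparison 8 of 10 T cell, 4 of 10 leukocyte, 4 of 10 endothelial and 3 of 10 Langerhans and myeloid markers were called higher. The count was 8 without Sca-1neg tdT+ replicate 3, which lies outside this contrast but enters the shared estimate of the spread, and 4 without replicate 2 of that group, with 6.39% and 5.01% of all genes called, against 4.74% with all libraries. It was 1 (Ifngr1) without Sca-1neg tdTneg replicate 1 or 3 or Sca-1+ tdTneg replicate 2, with 2.53%, 1.07% and 1.72% of all genes called, and 0 without Sca-1+ tdTneg replicate 1, with 0.231%. DESeq2 called 12 members, all higher, against 13.3% of all genes called by it. With the replicate block Irf5 and Trim25 were lost (adjusted p = 0.053 and 0.059) and Oas2 and Oasl2 were called.

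The effect of tdT was compared within each population, since tdT marks the descendants of cells in which Cre was active. Between tdT+ and tdTneg Sca-1neg cells no member was called by edgeR, against 0.00985% of all genes, or by DESeq2, against 1.93%. At an unadjusted p below 0.05 there were 4 members (10%, against 8.42% of all genes), all higher in tdT+ cells. They were Trim25 (log2 fold change 0.71 ± 0.23 (SE), adjusted p = 0.42), Ifngr1 (0.78 ± 0.26), Oas3 (2.44 ± 1.03) and Gbp2 (1.12 ± 0.50). Only Usp18 did not overlap between the groups (2.50%, against 16% of all genes), at 15.6, 14.9 and 8.98 CPM in tdT+ and 16.3, 16.8 and 16.8 CPM in tdTneg libraries. The median over members was 0.30, against -0.03 over all genes, and it was 0.06 without tdT+ replicate 1, 0.13 without the library labelled tdT+ replicate 2, 0.58 without tdT+ replicate 3, 0.46 without tdTneg replicate 2 and 0.13 without tdTneg replicate 3. The count at an unadjusted p below 0.05 was 13 without tdT+ replicate 3 and 9 without tdTneg replicate 2 (12.6% and 12.3% of all genes in those fits), and 1 or 2 without tdT+ replicate 1 or 2, tdTneg replicate 3 or Sca-1+ tdT+ replicate 3 (5.07% to 8.44% of all genes), and no fit called a member. Oas3 was at 1.60 without tdT+ replicate 1. All 10 leukocyte, all 10 T cell and all 10 Langerhans and myeloid markers also had a fitted change above 0 in this comparison, with 8, 7 and 4 of them at an unadjusted p below 0.05 and 6, 7 and 3 without overlap. The 95% interval of the tdT effect was -1.95 to 1.12 on the log2 scale for Isg15 and -0.13 to 0.40 for Jak1, a narrower interval for the abundant kinase than for the low effector.

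Between tdT+ and tdTneg Sca-1+ cells no member was called by edgeR, against 2.31% of all genes. A total of 4 members had an unadjusted p below 0.05 (10%, against 14.6% of all genes), all lower in tdT+ cells. Ddx58 was at 23.5, 26.3 and 19.2 CPM in tdT+ and 52.3 and 56.4 CPM in tdTneg libraries (log2 fold change -1.24 ± 0.41 (SE), adjusted p = 0.18). Gbp3 was at 2.37, 6.42 and 5.47 CPM and 19.5 and 25.2 CPM (log2 fold change -2.24 ± 0.84 (SE), adjusted p = 0.24). Gbp7 and Trim25 had log2 fold changes of -1.02 and -0.63, and for all 4 the libraries did not overlap. In total 15 members did not overlap (37.5%, against 33% of all genes), 13 of them lower in tdT+ cells and Ifngr2 and Irf3 higher. The median was -0.30, against 0.04 over all genes, and was -0.11 with the replicate block and -0.46 without tdTneg replicate 1. The count at an unadjusted p below 0.05 was 2 with the block (13.2% of all genes), 1 without tdTneg replicate 2 (7.0%) and 9 without Sca-1neg tdT+ replicate 3 (16.2%). DESeq2 called Ddx58 and Gbp3 lower, against 6.35% of all genes called by it (adjusted p = 0.047 and 0.0499), as did edgeR without Sca-1neg tdT+ replicate 3, against 3.44% of all genes (adjusted p = 0.027 and 0.024). Without the library labelled Sca-1neg tdT+ replicate 2 the count remained 0. All 10 endothelial markers were lower in the tdT+ libraries without overlap, and all 10 T cell markers higher without overlap.

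An interaction term tested whether tdT status acted unequally in Sca-1+ and Sca-1neg cells. No member was called by edgeR, against 0.389% of all genes, and 5 had an unadjusted p below 0.05 (12.5%, against 12.4% of all genes). In all 5 the effect was lower in Sca-1+ than in Sca-1neg cells, with log2 differences of -1.34 for Trim25, -3.60 for Gbp3, -2.05 for Gbp2, -1.56 for Ddx58 and -3.67 for Ifit3 (adjusted p = 0.14, 0.23, 0.29, 0.29 and 0.40). The fitted difference was below 0 for 32 of 40 members, with a median of -0.84, against 0.05 over all genes. The median was -0.51 without the library labelled Sca-1neg tdT+ replicate 2, -0.58 and -1.15 without replicates 1 and 3 of that group, and -0.52 with the replicate block. The count at an unadjusted p below 0.05 was 3 without Sca-1neg tdT+ replicate 1 (11.1% of all genes), 18 without replicate 3 (15.4%) and 9 without Sca-1neg tdTneg replicate 2 (15.1%). Ifit3 was at -2.61 without the library labelled Sca-1neg tdT+ replicate 2, -4.44 without Sca-1neg tdTneg replicate 2 and -2.86 without Sca-1+ tdTneg replicate 2. DESeq2 called Trim25, Gbp2 and Gbp3, against 4.38% of all genes called by it (adjusted p = 0.010, 0.048 and 0.014), and edgeR called Trim25, Gbp3 and Ddx58 without Sca-1neg tdT+ replicate 3, against 1.85% of all genes. This comparison uses the same tdTneg libraries as the comparisons within each population, and all 10 endothelial and all 10 Langerhans and myeloid markers had a fitted difference below 0 as well.

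**Figure D5:**
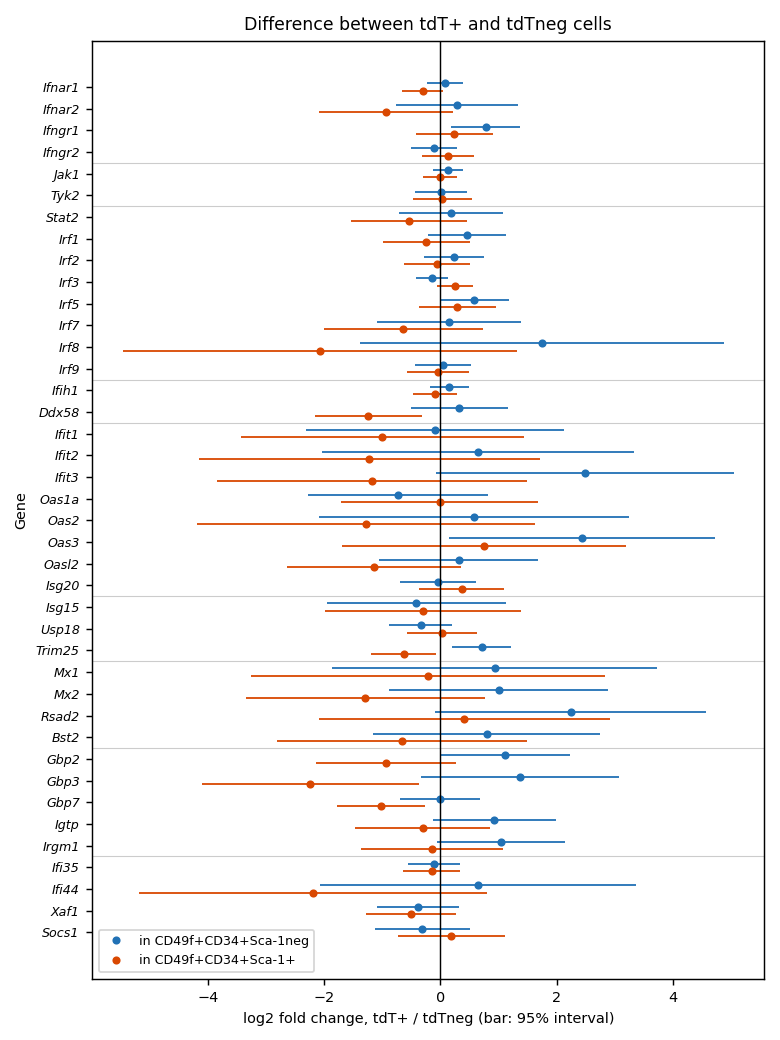
Fitted log2 fold change between tdT+ and tdTneg cells (horizontal axis) with its 95% interval for each member, in Sca-1neg cells (blue) and in Sca-1+ cells (orange), in order of role. The blue points lie mostly to the right (29 of 40 above 0) and the orange points mostly to the left (10 of 40 above 0), with overlapping intervals for most members.

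Beyond the 40 members, 81 of 90 further genes of the pathway could be tested between the populations, and 16 were higher in Sca-1+ cells and none lower (19.8%, against 4.77% of all genes called higher). By list, 1 of 2 tested ligands, 1 of 13 other receptor, kinase and feedback genes, none of 11 nucleic acid sensing genes and 14 of 55 other induced genes were called. The 5 with the lowest p were Samhd1, Ly6e, Phf11d, Sp100 and Mndal, all from the list of other induced genes. These lists, like the members, were chosen with earlier results of these data known. Samhd1 was at 32.4, 29.2 and 25.5 CPM in tdTneg and 45.3, 61.6 and 33.1 CPM in tdT+ Sca-1neg libraries, and at 105 and 109 CPM in tdTneg and 89.1, 92.9 and 81.7 CPM in tdT+ Sca-1+ libraries. Samhd1, which depletes nucleotides needed by viruses, did not overlap between the populations (log2 fold change 1.40 ± 0.15 (SE), adjusted p = 0.00037). Sp100 was at 13.8, 10.4 and 8.22 CPM in tdTneg and 16.5, 21.2 and 3.03 CPM in tdT+ Sca-1neg libraries, and at 68.3 and 57 CPM in tdTneg and 30.6, 50.3 and 32.2 CPM in tdT+ Sca-1+ libraries. Sp100, a nuclear body protein, did not overlap either (log2 fold change 2.00 ± 0.41 (SE), adjusted p = 0.0080). Ly6e, Phf11d and Mndal had log2 fold changes of 1.37, 1.35 and 2.90 (adjusted p = 0.0055, 0.0055 and 0.0089). Within tdT+ cells 2 of the 81 were called, both higher (2.47%, against 2.91% of all genes), and within tdTneg cells 11, all higher (13.6%, against 3.29%). Between tdT+ and tdTneg cells edgeR called none in either population and none for the interaction. At an unadjusted p below 0.05 there were 12 in Sca-1neg cells (14.8%, against 8.42% of all genes), 11 in Sca-1+ cells (13.6%, against 14.6%) and 23 for the interaction (28.4%, against 12.4%). Without the library labelled Sca-1neg tdT+ replicate 2 these counts were 7, 10 and 15 (7.36%, 14.2% and 10.7% of all genes in that fit). DESeq2 tested 82 of these pathway genes. It called 22 between the populations, against 16.4% of all genes, and 7 for the interaction, against 4.38%. Between tdT+ and tdTneg cells it called 5 in Sca-1neg cells, against 1.93%, and 2 in Sca-1+ cells, against 6.35%. Without the library labelled Sca-1neg tdT+ replicate 2, edgeR called 20 between the populations (11.3% of all genes in that fit). Within tdT+ and tdTneg cells it called 2 and 13 (8.11% and 5.01% of all genes). Between tdT+ and tdTneg cells it called 0 in Sca-1neg and 2 in Sca-1+ cells (0% and 2.72%), and 0 for the interaction (0.309%). The 11 within tdTneg cells were 26 without Sca-1neg tdT+ replicate 3, and 4 and 1 without Sca-1neg tdTneg replicates 1 and 3. In these fits 6.39%, 2.53% and 1.07% of all genes were called in either direction, against 4.74% with all libraries. Leaving out a Sca-1+ tdTneg library lowered the counts between the populations and within tdTneg cells. Fewer of all genes were called there as well. Within tdT+ cells the 2 were 1 without Sca-1neg tdT+ replicate 1 (5.84% of all genes called) and 0 without Sca-1+ tdT+ replicate 3 (6.11%). For the interaction 6 were called without Sca-1neg tdT+ replicate 3 (1.85% of all genes) and 1 without Sca-1neg tdTneg replicate 2 (0.340%). Between tdT+ and tdTneg Sca-1+ cells 1 was called without Sca-1neg tdT+ replicate 1 or 3 or Sca-1neg tdTneg replicate 2 (2.23%, 3.44% and 2.52% of all genes).

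Of 11 interferon ligand genes, 2 had enough counts to be tested, Ifng and Ifnk, named here after their values were seen. Ifng was at 0.0207, 0.264 and 0.0976 CPM in tdTneg and 0.544, 0.107 and 0.0551 CPM in tdT+ Sca-1neg libraries, and at 0.665 and 0.0838 CPM in tdTneg and 3.30, 14 and 12 CPM in tdT+ Sca-1+ libraries. Ifng, the interferon gamma of T and natural killer cells, was called higher in Sca-1+ cells (log2 fold change 3.44 ± 0.83 (SE), adjusted p = 0.018), with the 3 Sca-1+ tdT+ libraries above all others. Its log2 fold change was 3.27 without the library labelled Sca-1neg tdT+ replicate 2 (adjusted p = 0.039), and the call was lost without Sca-1+ tdTneg replicate 1 (2.37, adjusted p = 0.21). The Sca-1+ tdT+ libraries also had the highest T cell marker sums. The 2 Sca-1+ tdTneg libraries, with the highest sums of induced members, had Ifng near the Sca-1neg libraries, with replicate 1 just above the highest of them and replicate 2 inside their range. Ifnk was at 1.26, 0.211 and 0.0244 CPM in tdTneg and 0.861, 1.87 and 0.165 CPM in tdT+ Sca-1neg libraries, and at 3.80 and 0.712 CPM in tdTneg and 0.879, 0 and 0.516 CPM in tdT+ Sca-1+ libraries. Ifnk, the keratinocyte interferon, overlapped between the populations and was not called (log2 fold change 0.57 ± 1.09 (SE), adjusted p = 0.76), without the library labelled Sca-1neg tdT+ replicate 2 as well (adjusted p = 0.60).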

How the data were processed

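RNA from sorted epidermal cells was sequenced by the authors as TruSeq RNA libraries. Reads were demultiplexed with bcl2fastq (2.20.0.422), aligned to mm10 with STAR and counted per Ensembl gene (release 96) with featureCounts, and the deposited files hold these raw counts for each library, without normalisation (the submitters' notes also name DESeq2 1.18.1). Symbols were matched for all 55536 identifiers. A row outside the Ensembl genes was kept out of library sizes and tests.

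The counts were filtered with edgeR's filterByExpr, scaled by TMM and fitted to all 11 libraries in R 4.3.3 with edgeR 4.0.16 (glmQLFit and glmQLFTest, 4 groups, no block). P-values were adjusted over all 20307 genes kept, and a call needed an adjusted p below 0.05 and a log2 fold change beyond 1 in size. The procedure was tested on simulated data. Alternatives were DESeq2 1.42.0 (all genes with a count, its own independent filtering, shares over genes with an adjusted p), RLE size factors, other count filters, no fold threshold, the compared groups alone, a replicate block and omission of each library, and values within each age were added after seeing the data.

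Members with their full values in the text were those called, those with an unadjusted p below 0.05 between the populations, and fixed examples of each role, and the 5 further pathway genes were those called with the lowest p. The members and lists were chosen with earlier results of these data known. Replicates were pools of mice, so p-values measure the spread between pools. Replicate numbers were read as shared pools from the design of 3 biological replicates, which the labels do not state for the groups. Deviations from group means correlated with a median r of 0.08 (from -0.42 to 0.59, 15 pairs) for libraries of the same number and -0.02 for 30 other pairs. Deviations sum to 0 within a group, so these sets of pairs depend on each other and cannot decide whether pools were shared.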

Additional observations from a re-analysis of the deposited data

Results flagged for a closer look

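The count row outside the Ensembl genes, which enters no comparison, had a median of 133 CPM in Sca-1neg tdT+ libraries and 254 CPM in Sca-1+ tdT+ libraries, above the highest tdTneg library at 4.89 CPM. It was at 2.05 CPM in the library labelled Sca-1neg tdT+ replicate 2. The check for outlying values used here needs groups of 4 or more libraries and was not made for the members.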

How the results depend on the processing

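The 7 members called between the populations ranged from 3 (without Sca-1+ tdTneg replicate 2) to 9 (without Sca-1neg tdTneg replicate 2) when 1 library was left out, and from 5 to 10 under the other alternatives. Within tdT+ cells the 3 calls ranged from 1 to 3 on leaving out 1 library of a group of 3, with 5.84% to 11.3% of all genes called. They were 2 with RLE size factors (8.32% of all genes) and 1 with at least 10 counts in every library (12.7%). With only the groups compared 1 was called (8.85%). Within tdTneg cells the 4 calls ranged from 1 to 8 on leaving out 1 library of a group of 3, with 1.07% to 6.39% of all genes called. They were 12 by DESeq2 (13.3% of all genes), 8 with at least 1 count in any library (3.41%) and 7 with only the groups compared (7.61%). Leaving out a Sca-1+ tdTneg library lowered the calls within tdTneg cells and between the populations, among members and among all genes. Between tdT+ and tdTneg Sca-1+ cells the 0 calls of edgeR ranged from 0 to 2 on leaving out 1 library of a group of 3. The 2 were without Sca-1neg tdT+ replicate 3, with 3.44% of all genes called. They were 2 by DESeq2 (6.35% of all genes), 1 with at least 1 count in any library (2.14%) and 3 with only the groups compared (5.09%). For the interaction the 0 calls ranged from 0 to 3 on leaving out 1 library of a group of 3. The 3 were without Sca-1neg tdT+ replicate 3, with 1.85% of all genes called. They were 3 by DESeq2 (4.38% of all genes) and 2 with at least 1 count in any library (1.38%). Between tdT+ and tdTneg Sca-1neg cells the count was 0 under each alternative run. The cause of these shifts was not tested, other than that fewer genes or libraries entered some fits.

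With the replicate number as a block the calls were 8 between the populations, 4 within tdT+ and 4 within tdTneg cells (11.1%, 8.39% and 3.99% of all genes). They were 0 for the effect of tdT in either population and for the interaction. The block added Oas2 between the populations and Isg15 within tdT+ cells. Among the 21 members whose difference between the populations was recomputed singly, 1 changed direction, Irf1, at -0.016 without Sca-1+ tdTneg replicate 1, within a range of -0.016 to 0.35. Among the named genes, 900 values kept their direction and side of the threshold, 53 lost a call, 49 gained one and 1 reversed. With RLE size factors the median over members was 0.51, against 0.49. Requiring 10 or more counts throughout left 11 members untested. Omitting a Sca-1+ tdTneg library left 1 library there, assumed to vary like the other groups. Ifit2 and Ifi44 were at 0 counts in Sca-1neg tdT+ replicate 3 and at 80 and 78 counts in the library of that group with about the same total, labelled replicate 2.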
